A study of Mus musculus with 6 samples.

Results

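The genes described here were those of cholesterol synthesis and of the sterol response: 28 genes chosen by name, of 24062 listed in the count tables. They comprised 19 enzymes, 6 genes of the SREBP control circuit and 3 genes of sterol transport and lipid synthesis. The enzymes lie on the path from acetyl-CoA to cholesterol, apart from Ggps1, which makes geranylgeranyl diphosphate on a side branch. All 28 were found and all 28 passed the filter on low counts (at least 10 reads in at least 3 libraries), as did 11574 genes in all. RNA sequencing was done on RAW264.7 cells, a mouse macrophage-like line, although the source field of the labels names bone marrow. There were 6 conditions with 1 library each, and each library held RNA pooled from 5 wells. M0 cells were left unpolarized, M1 cells spent 24 h with LPS at 100 ng/mL plus IFN-γ at 20 ng/mL, and M2 cells spent 24 h with IL-4 at 20 ng/mL. RM0, RM1 and RM2 cells had the same polarization, then 10 Gy of gamma rays from a caesium source, and were collected 24 h later. Whether the non-irradiated cells were kept for the same further time is not stated.

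Cholesterol is built from acetyl-CoA through mevalonate, squalene and lanosterol. When sterol in the endoplasmic reticulum is low, SCAP escorts the transcription factor SREBP2 to the Golgi, where the site-1 and site-2 proteases release its active part, and the freed factor switches on nearly every enzyme of the route. When sterol is plentiful, INSIG proteins hold SCAP back, and in macrophages this circuit works beside uptake of lipoproteins, storage as esters and export of cholesterol.

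The libraries held between 17894937 and 18870516 counted reads, and the 28 genes together took between 0.107% and 0.115% of them. All 8 macrophage markers examined had at least 10 reads in every library, with the lowest value being 646. T cell, B cell and epithelial markers, 10 genes in all, had at most 4 reads in any library. Of 6 fibroblast markers, Col1a2 and Col3a1 were at 0 in all libraries, Pdgfra had 1 to 4 reads, Col1a1 had 0 to 11 and Lum had 8 to 34. Dcn, the remaining one, was higher in both M1 libraries, with counts of 113, 627, 114, 145, 726 and 177 in M0, M1, M2, RM0, RM1 and RM2. The summed level of the fibroblast list ranged from 6.45 to 45.8 scaled CPM (counts relative to library size) over the libraries, and its part in the results below was not tested.

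Promoters were read first, since many of the members are known as targets of shared factors. RefSeq windows (GRCm38.p6, 250 bases before to 50 bases after a start) were found for 23 of the 28 members, and there was no entry for Fdft1, Fdps, Npc1, Sqle and Stard4. The letters CCAAT, the core bound by NF-Y, were searched on both strands, so that a match on the other strand reads ATTGG. They were present in 18 of the 23 members (78.3%), beside 43.6% of the 8707 genes that passed the count filter and had a window, and 37.4% of all 32851 windows. A sterol regulatory element of the letters TCACNCCAC was found in 1 member (4.35%), Hmgcs1, as TCACCCCAC at 137 bases before the start. It was found in 1.45% of the genes that passed the count filter and had a window, and in 1.24% of all windows. The E-box letters CACGTG were found in 5 members (21.7%), beside 12.1% of the genes that passed the count filter and had a window and 7.15% of all windows. No 2 matches overlapped in the members. Acat2, Lpin1, Mbtps1, Mbtps2 and Scap held no CCAAT in any window. A match describes letters only and is not a bound site.

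The 250 bases before the start are printed below for 5 members, with every match of the 3 motifs in capitals. Insig1 and Cyp51 were among the genes most raised in M1 cells, Hmgcs1 held the single sterol regulatory element, Mvk held the most CCAAT matches (5), and Mbtps2 was lower in M1 cells and held none.
Insig1, chr5:28071162-28071411, + strand: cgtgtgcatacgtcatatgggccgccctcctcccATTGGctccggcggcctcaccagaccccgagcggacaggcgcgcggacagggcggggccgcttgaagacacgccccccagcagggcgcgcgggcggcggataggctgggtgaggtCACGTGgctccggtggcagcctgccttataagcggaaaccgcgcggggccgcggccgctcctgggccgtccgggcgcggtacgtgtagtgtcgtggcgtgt
Cyp51, chr5:4104698-4104947, - strand: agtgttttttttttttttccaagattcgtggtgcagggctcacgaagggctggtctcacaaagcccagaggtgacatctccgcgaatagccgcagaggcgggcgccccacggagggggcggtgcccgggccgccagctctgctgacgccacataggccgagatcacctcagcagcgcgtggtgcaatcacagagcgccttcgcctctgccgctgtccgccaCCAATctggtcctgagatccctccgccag
Hmgcs1, chr13:119690101-119690350, + strand: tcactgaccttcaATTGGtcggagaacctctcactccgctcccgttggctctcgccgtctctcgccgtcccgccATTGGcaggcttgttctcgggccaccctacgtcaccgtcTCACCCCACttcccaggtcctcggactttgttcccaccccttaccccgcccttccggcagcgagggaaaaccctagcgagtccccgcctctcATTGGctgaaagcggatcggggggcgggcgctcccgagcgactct
Mvk, chr5:114444019-114444268, + strand: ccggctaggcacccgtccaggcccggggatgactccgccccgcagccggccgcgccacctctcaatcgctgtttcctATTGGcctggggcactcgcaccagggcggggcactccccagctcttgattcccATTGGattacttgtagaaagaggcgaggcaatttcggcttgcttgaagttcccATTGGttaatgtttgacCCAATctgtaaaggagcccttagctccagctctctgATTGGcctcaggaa
Mbtps2, chrX:157598716-157598965, - strand: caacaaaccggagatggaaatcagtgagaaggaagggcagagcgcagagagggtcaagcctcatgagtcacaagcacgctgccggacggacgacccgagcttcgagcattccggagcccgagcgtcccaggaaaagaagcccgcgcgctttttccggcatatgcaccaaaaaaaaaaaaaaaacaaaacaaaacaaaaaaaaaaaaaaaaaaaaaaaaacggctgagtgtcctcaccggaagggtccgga

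The tests called more of these genes for M1 polarization than for M2 polarization or irradiation, as they did over the whole table, where 47.6%, 0.19% and 0.475% of tested genes passed. Over both radiation conditions, 13 of the 28 genes rose in M1 cells and 2 fell, while 13 did not pass the test (edgeR's quasi-likelihood test, Benjamini-Hochberg adjusted p under 0.05). Among all tested genes, 23.3% rose and 24.3% fell. The median change of the 28 was 0.36 on the log2 scale, beside -0.02 for all tested genes, and 24 of the 28 lay above 0. The rise was spread along the enzymes from mevalonate to cholesterol and included Insig1 and Srebf2, whereas the 2 that fell were the proteases Mbtps1 and Mbtps2.

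**Figure D1:**
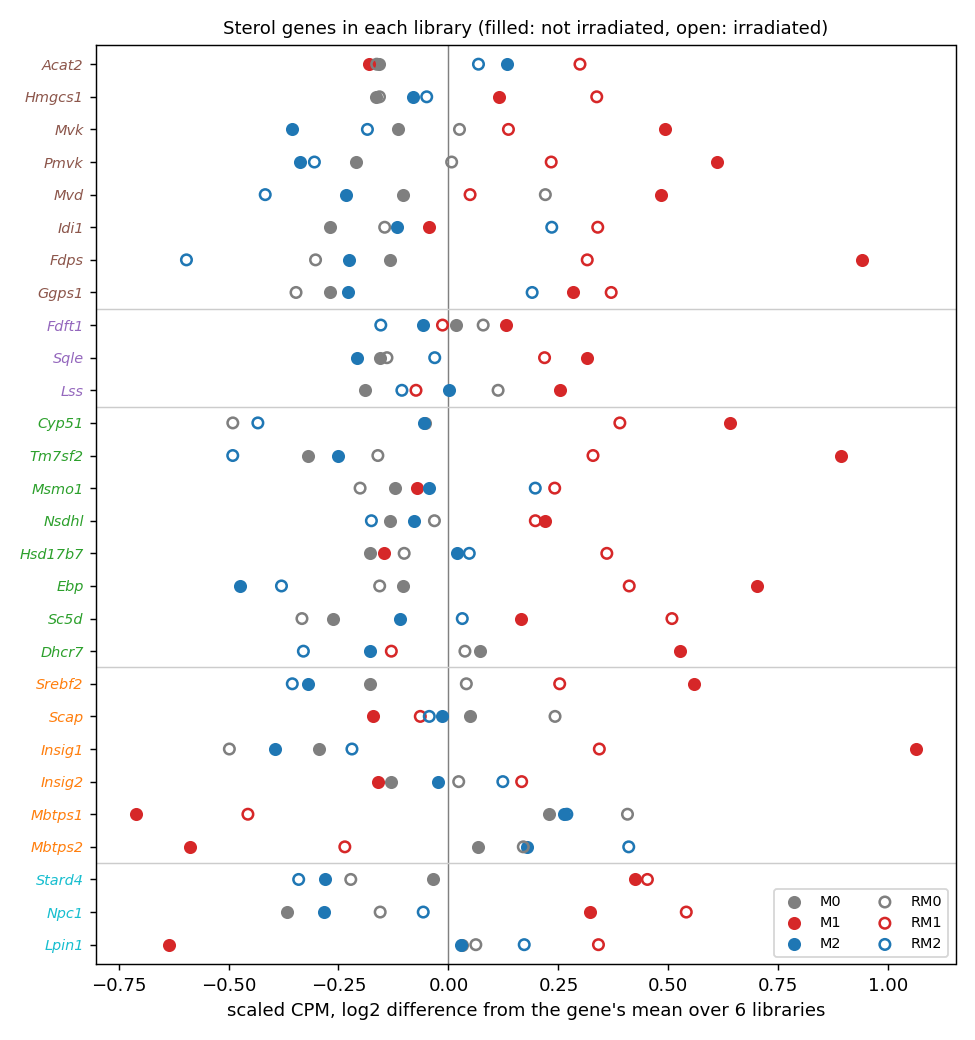
Level of each sterol gene in the 6 libraries, as the log2 difference of the scaled CPM from that gene's mean over the libraries; filled points are non-irradiated, open points are irradiated, red is M1, grey is M0 and blue is M2. The red points lie to the right for most enzymes and for Insig1, and to the left for Mbtps1 and Mbtps2.

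These changes are relative to the scaling of the libraries. TMM scaling (trimmed mean of M values) sets the bulk of genes to no change, and its factors were 0.8004 in M1 and 0.8836 in RM1, beside 1.05 to 1.134 in the other libraries. With library totals the median of all genes shifted to -0.36 in the same test, the median of the 28 became 0.02, and 4 members rose and 3 fell. The 4 were Insig1, Fdps, Cyp51 and Npc1, and the 3 were Mbtps1, Mbtps2 and Scap. Against totals, 1091 of all tested genes rose and 4750 fell, beside 2692 and 2817 with TMM. Between the scalings each member shifted by 0.34 to 0.35, about as much as the median of all genes. The median of the 28 genes therefore lay above that of all tested genes under both scalings, which is no separate check. Their summed share of reads was 0.107% in M1 and 0.111% in M0.

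In the mevalonate arm, 4 of 8 enzymes rose in M1 cells and none fell, beside 23.3% and 24.3% of all tested genes. Their median change was 0.38 on the log2 scale. Fdps, which makes farnesyl diphosphate, had counts of 1094, 1716, 1049, 961, 1255 and 794 in M0, M1, M2, RM0, RM1 and RM2, the order used for all counts here. Both M1 libraries stood above the other 4. The M1 effect was 0.85 ± 0.14 (SE) on the log2 scale (adjusted p = 0.000626), and M1 against M0 alone was 2.1-fold. Ggps1, which makes geranylgeranyl diphosphate, had counts of 362, 396, 381, 339, 474 and 498. Its highest count was in RM2, but after scaling both M1 libraries stood highest, at 26.8 and 28.4 CPM beside 17.3 to 25.1. The effect was 0.63 ± 0.15 (adjusted p = 0.00631). Pmvk, the second kinase acting on mevalonate, had counts of 203, 267, 190, 233, 232 and 190, with an effect of 0.53 ± 0.18 (adjusted p = 0.0344). In the irradiated pair the Pmvk counts were level, and the higher value in RM1 came from scaling alone (13.9 CPM beside 11.9 in RM0). Hmgcs1, which makes HMG-CoA, had counts of 477, 432, 517, 474, 568 and 517. The M1 count was the lowest of the 6 and the RM1 count the highest. The effect was 0.39 ± 0.13 with TMM scaling (adjusted p = 0.0301) and 0.05 with library totals. Acat2, Mvk, Mvd and Idi1, the other members of the arm, had M1 effects of 0.20 to 0.36 that did not pass the test, with counts between 91 and 487 across libraries.

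Between squalene and lanosterol, 1 of 3 enzymes rose, beside 23.3% of all tested genes. Sqle, the squalene epoxidase, which is a control point of the route, had counts of 1102, 1137, 1087, 1100, 1200 and 1201. These counts ranged little, and the effect was 0.41 ± 0.13 with TMM scaling (adjusted p = 0.0189) and 0.07 with library totals. Fdft1, which joins farnesyl groups into squalene, had an effect of 0.01 with a 95% interval from -0.29 to 0.31. Lss, which cyclizes squalene epoxide into lanosterol, had an effect of 0.12, with an interval from -0.23 to 0.48.

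From lanosterol to cholesterol, 4 of 8 enzymes rose and none fell, beside 23.3% and 24.3% of all tested genes. Their median change was 0.46. Cyp51, which removes a methyl group from lanosterol, had counts of 487, 587, 497, 355, 556 and 374. The M1 library was highest without irradiation and the RM1 library was highest with it, and the effect was 0.79 ± 0.13 (adjusted p = 0.00071). Tm7sf2, a sterol reductase, was expressed at a low level with counts of 98, 169, 105, 108, 129 and 87. Its M1 libraries again led, with an effect of 0.85 ± 0.22 (adjusted p = 0.00974) and a 2.29-fold difference between M1 and M0 alone. Ebp, the isomerase that moves the sterol double bond, had counts of 705, 918, 557, 671, 846 and 582, with an effect of 0.69 ± 0.13 (adjusted p = 0.00177). Sc5d, a sterol desaturase, had counts of 371, 372, 422, 349, 532 and 455. The M1 count matched that of M0, so its higher scaled level without irradiation came from scaling, while the RM1 count was the highest of all. Over both conditions the Sc5d effect was 0.64 ± 0.15 (adjusted p = 0.00468). Msmo1, Nsdhl and Hsd17b7, which clear the methyl groups at carbon 4, had effects of 0.24 to 0.29 that did not pass. Dhcr7, the last reductase of one branch, had counts of 1028, 1050, 884, 991, 751 and 778 and an M1 effect of 0.15 ± 0.15 (adjusted p = 0.44). Its M1 library was highest and its RM1 library lowest in raw counts, but after scaling RM1 stood at 45.04 CPM, above M2 at 43.6 and RM2 at 39.2.

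Of the 6 SREBP control genes, 2 were higher and 2 lower in M1 cells, beside 23.3% and 24.3% of all tested genes. Insig1, itself a target of SREBP as well as the protein that retains SCAP, had counts of 240, 459, 229, 206, 314 and 253. Both M1 libraries were above the other 4, and the effect of 1.12 ± 0.20 (adjusted p = 0.00114) was the largest rise among the 28. In M1 against M0 alone the Insig1 difference was 2.55-fold. Insig2, the second INSIG protein, had counts of 619, 452, 681, 680, 639 and 738, lowest in M1, and an effect of 0.06 with an interval from -0.22 to 0.34. Srebf2, which encodes SREBP2, had counts of 2365, 2939, 2194, 2719, 2681 and 2094 and an effect of 0.48 ± 0.14 (adjusted p = 0.0167). The M1 library was the highest, whereas RM1 and RM0 had similar counts. Scap had counts of 977, 625, 956, 1103, 759 and 916, with the M1 and RM1 libraries lowest. Its effect of -0.26 ± 0.12 did not pass with TMM (adjusted p = 0.0996) and passed with library totals (-0.61, adjusted p = 0.00762).

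Mbtps1, the site-1 protease gene (chromosome 8, 119508152 to 119558761), had counts of 1806, 702, 1893, 2020, 945 and 1859. The M1 and RM1 libraries were both far below the other 4, and the effect was -0.90 ± 0.12 (adjusted p = 0.000232), the smallest adjusted p among the 28. Mbtps2, the site-2 protease gene (chromosome X, 157572859 to 157598715), had counts of 1132, 536, 1251, 1202, 772 and 1437, again lowest in M1 and RM1. Its effect was -0.53 ± 0.13 (adjusted p = 0.00575).

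Among the transport and other genes, 2 of 3 rose, beside 23.3% of all tested genes. Npc1, which exports cholesterol from lysosomes and was the member with the most reads, had counts of 2734, 3283, 2960, 3126, 4309 and 3387. It stood highest in M1 without irradiation and in RM1 with it, with an effect of 0.69 ± 0.12 (adjusted p = 0.000791). Stard4, a cytosolic sterol carrier, had counts of 241, 247, 208, 209, 284 and 195, with an effect of 0.57 ± 0.16 (adjusted p = 0.0131). The Stard4 counts of M1 and M0 were nearly equal before scaling. Lpin1, a phosphatidate phosphatase of triglyceride synthesis, had counts of 426, 200, 435, 430, 444 and 470. The M1 library alone was low, and the effect over both radiation conditions was -0.15 ± 0.20 (adjusted p = 0.561).

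**Figure D2:**
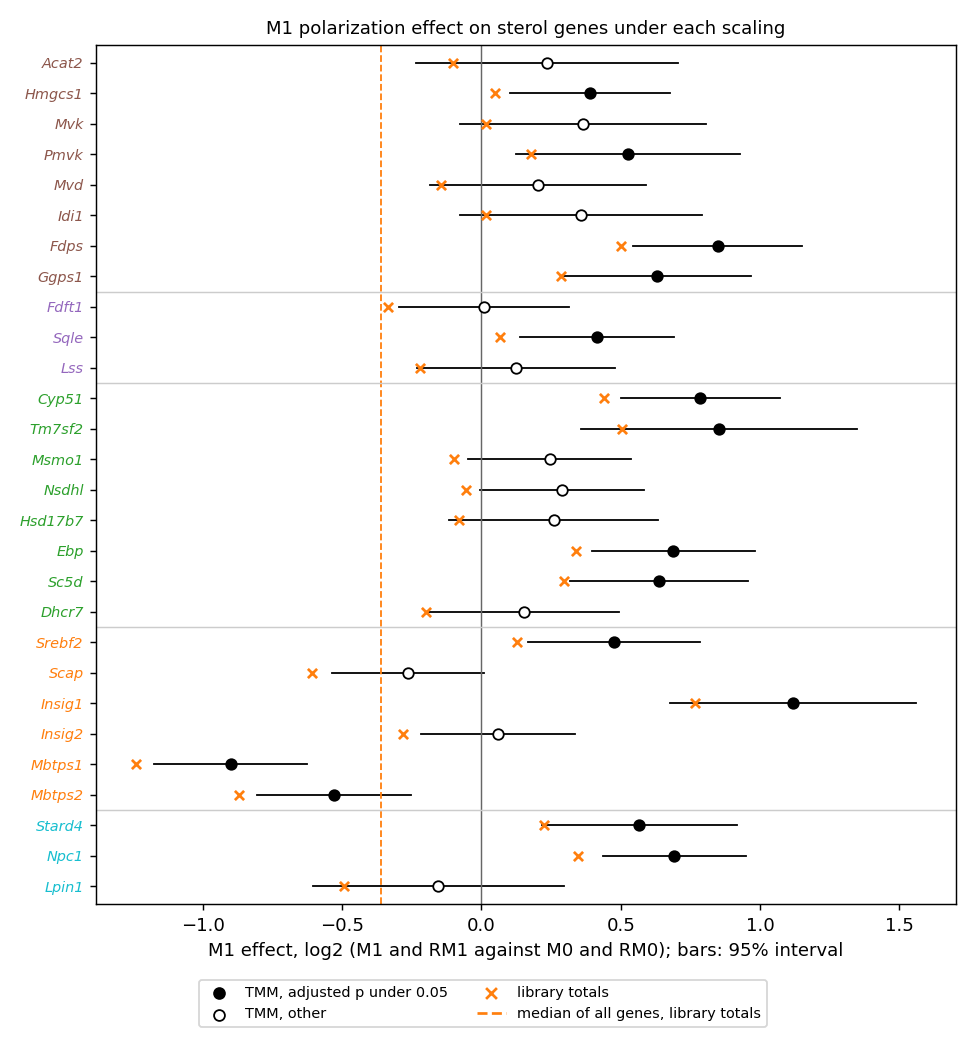
M1 effect over both radiation conditions for each sterol gene on the log2 scale, with 95% intervals under TMM scaling (circles, filled where the adjusted p is under 0.05) and the values under library totals (crosses); the dashed line is the median of all tested genes under library totals, at -0.36. Each cross lies about 0.35 to the left of its circle, and 24 of the 28 circles lie to the right of 0.

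Of the 15 calls, those of Fdps, Cyp51, Insig1, Npc1, Mbtps1 and Mbtps2 passed under all 13 alternatives. With the DESeq2 test Hmgcs1 (adjusted p = 0.0766) and Pmvk (0.0759) did not pass, so that 11 members rose in place of 13. Over all tested genes 20.4% rose with DESeq2, beside 23.3% in the main test. Every alternative in which fewer members rose also had a smaller share of all genes rising. That share was 9.43% with library totals and 15.4% without the M0 library. The Ebp call was lost with library totals (adjusted p = 0.0588). Without the M0 library, Tm7sf2 (adjusted p = 0.188), Srebf2 (0.249), Pmvk (0.349), Sqle (0.0607) and Hmgcs1 (0.0711) did not pass, and 8 members rose in place of 13. Srebf2 was also lost without M1 (0.062), and Pmvk without M1 (0.229). Ggps1 (0.0639), Sc5d (0.0566) and Stard4 (0.117) were lost without RM0, as were Sqle (0.0641) and Hmgcs1 (0.168). Leaving out M2 or RM2 removed Pmvk (0.0659 and 0.0659), Sqle (0.0744 and 0.0724) and Hmgcs1 (0.106 and 0.104), and leaving out RM1 removed Hmgcs1 (0.0953).

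Levels between genes were compared as scaled CPM per kilobase of transcript. In M0 cells Fdps was highest at 44.6, followed by Msmo1 at 36.6, Npc1 at 26.4 and Insig2 at 24.2. Idi1 was lowest at 1.95, below Stard4 at 2.38, Hsd17b7 at 2.75 and Acat2 at 2.78. In M1 cells Fdps reached 93.8. Across the 6 libraries the scaled level of single members ranged 1.22-fold for Fdft1 and 1.25-fold for Insig2, and up to 2.9-fold for Fdps and 2.95-fold for Insig1. With 1 library a condition these levels have no replicate error.

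The M1 change was then compared without and with irradiation, in pairs that share no library. Without irradiation, 3 members were at least 2-fold higher in M1 than in M0, namely Insig1, Tm7sf2 and Fdps, beside 9.37% of the 11778 genes tested, and 0 were 2-fold lower, beside 13.3%. With irradiation none of the 28 passed 2-fold in RM1 against RM0, beside 14% of genes in either direction. These pair calls have no replicate check. Of the 28, 21 moved the same way in both pairs, beside 79.2% of all tested genes. Spearman's rho was 0.49 over the 28 genes and 0.78 over all tested genes, given as a description, since genes share their libraries. The median change of the members was 0.45 without and 0.40 with irradiation on the log2 scale with TMM. With library totals it was 0.01 without and 0.15 with irradiation, so the order depends on the scaling.

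Single members differed in how far they moved. Insig1 was 2.55-fold higher in M1 than in M0 and 1.78-fold higher in RM1 than in RM0, and Fdps was 2.1-fold and 1.53-fold higher. Tm7sf2 was 2.29-fold and 1.4-fold higher. Npc1, in contrast, was 1.61-fold and 1.62-fold higher, and Mbtps1 was at 0.522 and 0.55 of the M0 and RM0 levels. These folds rest on TMM scaling. With library totals the log2 changes were 0.25 and 0.45 for Npc1 and -1.38 and -1.11 for Mbtps1, no longer level. Insig1 (0.91 and 0.59), Fdps (0.63 and 0.37) and Tm7sf2 (0.76 and 0.24) still rose less in the irradiated pair. Cyp51 (1.61-fold and 1.84-fold) and Sc5d (1.34-fold and 1.79-fold) differed more in the irradiated pair. Mvd was 1.5-fold higher in M1 than in M0 but at 0.889 of RM0 in RM1, and Dhcr7 was 1.37-fold higher and at 0.891.

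**Figure D3:**
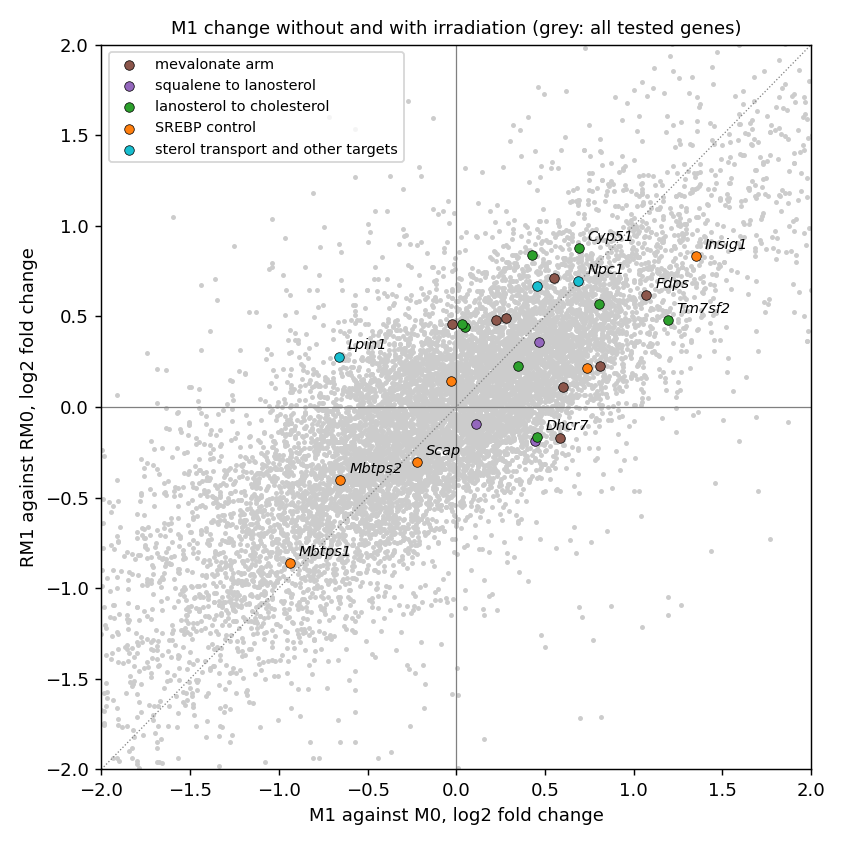
Log2 fold change of M1 against M0 (horizontal) and of RM1 against RM0 (vertical) for the sterol genes, coloured by group, over all tested genes in grey; both axes end at 2 and the dotted line marks equal change. With TMM scaling, Insig1, Fdps and Tm7sf2 lie to the right of the line, and Npc1 and Mbtps1 lie near it. Lpin1 and Dhcr7 are the labelled genes that change direction between the pairs.

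Polarization to M2 changed 0 of the 28 genes by edgeR's quasi-likelihood test, beside 0.156% of tested genes that rose and 0.0346% that fell. The changes ran from -0.40 for Mvd to 0.29 for Ggps1, with a median of 0.00. At an unadjusted p under 0.05 there was 1 member beside 10.1% of tested genes, Mvd (-0.40, adjusted p = 0.487), whose counts were 394, 441, 368, 487, 368 and 317. Without the M1 library, or without RM1, Mvd, Dhcr7 and Srebf2 passed as lower in M2 cells (adjusted p of 0.0183, 0.0358 and 0.0496 without M1), beside 5.43% of all genes tested without M1 and 5.42% without RM1. DESeq2 also called 0 members. No member was 2-fold different between M2 and M0, beside 1.44% of genes, or between RM2 and RM0, beside 2.61%. The changes were wider in the irradiated pair, from -0.63 for Mvd to 0.53 for Ggps1, than in the non-irradiated pair, from -0.37 for Ebp to 0.29 for Acat2.

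Irradiation over the 3 states changed 0 of the 28 by edgeR's quasi-likelihood test, beside 0.346% of tested genes that rose and 0.13% that fell, and 0 by DESeq2. At an unadjusted p under 0.05 there were 5 members, beside 14.7% of tested genes. Fdps (-0.39, adjusted p = 0.164) was lower in each irradiated library than in its partner, as was Cyp51 (-0.35, adjusted p = 0.177). Npc1 (0.22, adjusted p = 0.318) and Mbtps2 (0.23, adjusted p = 0.332) were higher in all 3 pairs. Dhcr7 (-0.28, adjusted p = 0.336) was the fifth. Calls appeared when single libraries were left out, over all genes as well as among the members: without M0, Fdps fell (-0.50, adjusted p = 0.0172) and Lpin1 rose (0.54, adjusted p = 0.0491), and without RM0, Fdps fell (adjusted p = 0.0217), while 6.06% and 5.66% of all genes passed in these fits. Cyp51 fell without M1 (-0.41, adjusted p = 0.0164), without RM1 (adjusted p = 0.0177), and without both (-0.40, adjusted p = 0.0228), where 4.76%, 4.74% and 4.56% of all genes passed. None of the members differed 2-fold between RM0 and M0, between RM1 and M1, or between RM2 and M2, beside 1.54%, 5.34% and 1.97% of genes.

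Whether irradiation acted differently in M1 cells was tested as the difference between its effect there and in M0 and M2 cells. By edgeR's quasi-likelihood test 1 member passed as higher, beside 4.05% of tested genes, and 2 passed as lower, beside 4.61%. At an unadjusted p under 0.05 there were 8 members, beside 23.1% of genes. This fit had 1 residual degree of freedom and took the spread of each gene from that shared by all genes. Lpin1 was 1.96-fold higher in RM1 (444 reads) than in M1 (200 reads), while its counts were 426 and 430 in M0 and RM0 and 435 and 470 in M2 and RM2. The difference of effects was 0.89 ± 0.22 (SE) on the log2 scale (adjusted p = 0.00167), and the M1 library was the single low one. Insig1 went the other way, with 459 reads in M1 and 314 in RM1, beside 240 and 206 in the unpolarized pair and 229 and 253 in the M2 pair. Its difference of effects was -0.71 ± 0.22 (adjusted p = 0.022). Dhcr7 had 1050 reads in M1 and 751 in RM1, beside 1028 and 991 in M0 and RM0 and 884 and 778 in M2 and RM2, with a difference of -0.56 ± 0.18 (adjusted p = 0.0311). The Insig1 and Dhcr7 calls were lost with library totals (adjusted p of 0.0975 and 0.162).

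**Figure D4:**
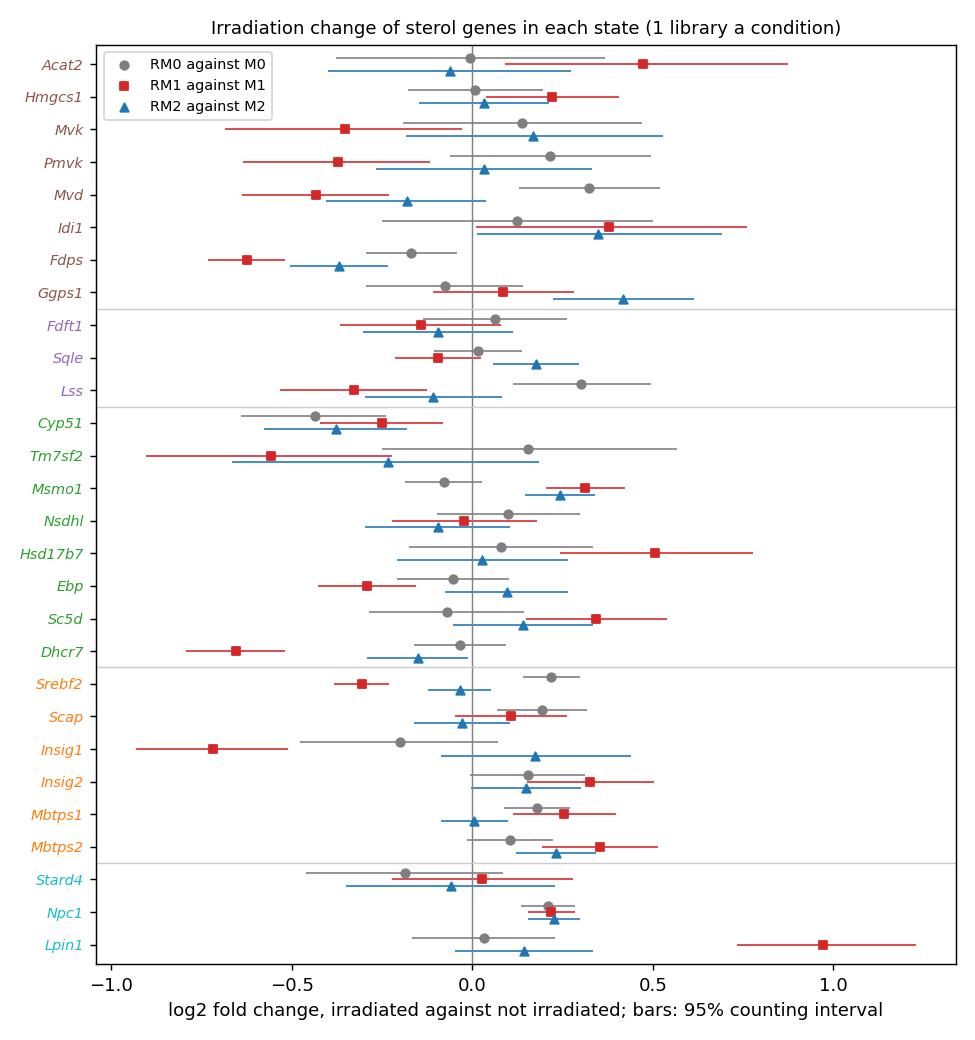
Log2 fold change of irradiated against non-irradiated libraries for each sterol gene in the M0 (grey), M1 (red) and M2 (blue) states, with 95% counting intervals that leave out variation between cultures. The red squares of Lpin1 lie far to the right of the grey and blue points, and those of Insig1 and Dhcr7 lie to the left.

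Transcript GC content moved with several of these differences. It was known for all 28 members, from 40% to 59.1% with a median of 48.7%, beside a median of 49.7% over all tested genes. In RM2 against RM0, Spearman's rho between GC content and change was -0.84 over the members and -0.63 over all tested genes. Ggps1, at 40.1% GC, was higher by 0.53 in that pair, and Mvd, at 59% GC, was lower by 0.63 on the log2 scale. In RM1 against M1, rho was -0.59 over the members and -0.37 over all genes. In M1 against M0 rho was 0.28 over the members and 0.07 over all genes, and in RM1 against RM0 it was -0.47 and -0.25. The points share their libraries, so no p is given. After the GC trend of each library was removed, the 4 tests called 13, 0, 0 and 1 members as higher and 2, 0, 0 and 2 as lower. These member counts were as before, while the shares of all tested genes moved. In the M1 test 28.1% rose and 24.1% fell, beside 23.3% and 24.3% before. In the M2 test 0.0518% rose and 0% fell, and in the irradiation test 0.164% and 0.0605%. In the test of irradiation in M1 against the other states 3.43% were higher and 7.15% lower, beside 4.05% and 4.61% before.

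**Figure D5:**
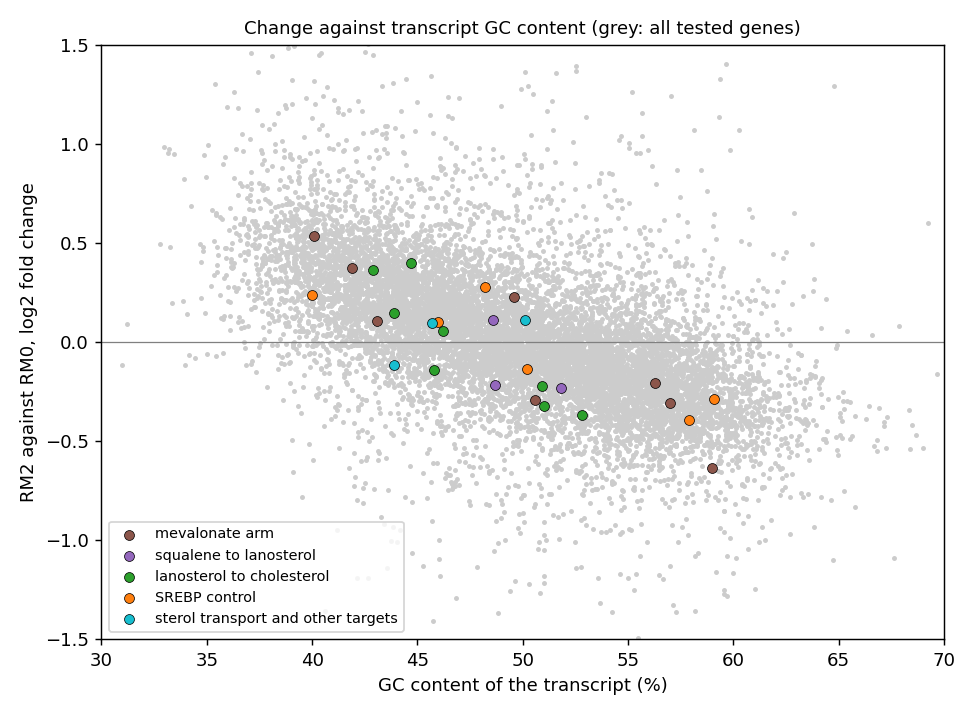
Log2 fold change of RM2 against RM0 (vertical) against the GC content of the transcript in percent (horizontal) for the sterol genes, coloured by group, over all tested genes in grey; the vertical axis ends at 1.5. The members fall from upper left to lower right with exceptions, such as Stard4 and Nsdhl below 0 at 43.9% and 45.8% GC.

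Further genes of the route and its neighbours were examined as lists. Of 14 other sterol pathway and SREBP target genes, 13 were tested, and 6 rose and 4 fell in M1 cells, with a median change of 0.26, beside the 23.3% and 24.3% of all tested genes that rose and fell. Acss2, an acetyl-CoA synthetase, rose by 0.68 ± 0.14 (adjusted p = 0.00309), and Aacs, an acetoacetyl-CoA synthetase, changed by -0.55 ± 0.14 (adjusted p = 0.0068). Acat3 rose by 1.42 ± 0.38 (adjusted p = 0.0109) at 12 to 70 reads and shares sequence with Acat2.

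In the isoprenoid branch, which uses farnesyl and geranylgeranyl groups, 4 of 14 genes rose and 1 fell in M1 cells, with a median change of -0.01, beside the same 23.3% and 24.3%. Rabggtb, a subunit of the enzyme that adds geranylgeranyl groups to Rab proteins, rose by 0.73 ± 0.15 (adjusted p = 0.00214), and Icmt, the methyltransferase of prenylated proteins, rose by 0.63 ± 0.13 (adjusted p = 0.00283). Nus1, a subunit of the enzyme that makes dolichol chains, rose by 0.40 ± 0.12 (adjusted p = 0.0208), and Rabggta, the partner subunit of Rabggtb, by 0.35 ± 0.12 (adjusted p = 0.037). Among 10 partners of sterol sensing and degradation, 2 rose and 3 fell, beside the same 23.3% and 24.3%. Npc2, the soluble lysosomal partner of Npc1, rose by 1.98 ± 0.18 (adjusted p = 1.64e-05), with 12176, 44513, 10507, 14575, 38984 and 10937 reads. Erlin2, a protein of the endoplasmic reticulum that takes part in degradation there, changed by -1.07 ± 0.15 (adjusted p = 0.000295). Spring1, listed as 2410131K14Rik and a partner of the site-1 protease, changed by -0.57 ± 0.15 (adjusted p = 0.00954), the same direction as Mbtps1.

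The last list held 12 genes linked to the oxysterol receptors LXR or to oxysterol and sterol metabolism, not all of them LXR targets. Of these, 9 were tested, and 2 rose and 2 fell in M1 cells, again beside 23.3% and 24.3% of all tested genes. Cyp27a1, which makes an oxysterol, changed by -1.60 ± 0.13 (adjusted p = 8.27e-06), with 787, 195, 852, 818, 229 and 811 reads, and Nr1h3, which encodes LXRα, by -0.91 ± 0.28 (adjusted p = 0.02) at 24 to 81 reads. Abcg1, a cholesterol exporter, rose by 0.59 ± 0.13 (adjusted p = 0.00383), and Lpcat3, a phospholipid acyltransferase, by 0.40 ± 0.12 (adjusted p = 0.0183). Abca1, the other main exporter, was the one gene of all 4 lists that irradiation over the 3 states changed, with 2376, 883, 2096, 4392, 3810 and 4703 reads. It rose by 1.34 ± 0.17 (adjusted p = 0.00754), and by 0.89 ± 0.17 more in M1 than in the other states (adjusted p = 2.87e-05). Npc2 was the single listed gene whose irradiation effect was lower in M1 than in the other states (-0.55 ± 0.16, adjusted p = 0.011). None of the 4 lists held a gene that M2 polarization changed.

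Some members could have shared reads with other genes, and the strand setting of the counting is not stated. The listed span of Srebf2 covered 9.15% of the annotated gene, that of Lss 30.8% and that of Mbtps2 40.8%. Those of Pmvk and Lpin1 covered 68.35% and 71.85%. Whether reads were counted only in the listed spans is not stated. Acat2 shared 35.3% of its 100-base windows with transcripts of Acat3 and Tcp1, and Idi1 shared 27.6%. Exons of Mbtps2 overlapped Yy2 over 28.4% of their length and those of Fdps overlapped Gm43738 over 26.7%. Those of Fdft1 overlapped Ctsb over 18.3% and those of Scap overlapped an antisense gene over 13.2%. Those of Tm7sf2 overlapped Vps51, and those of Hmgcs1 overlapped Gm48342, over 12.1% each. The values of these genes carry that uncertainty.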

How the data were processed

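RAW264.7 RNA was analysed in 6 libraries, 1 per condition, each with 1 deposited table of raw read counts per gene. Per the submitters' processing notes the tools were Trimmomatic 0.36, HISAT2 2.2.1 and HTSeq 0.11.3 with the mm10 genome; the authors' counts were neither normalized nor filtered. From the deposited counts, edgeR 4.0.16 (R 4.3.3) gave quasi-likelihood tests with TMM scaling over the 11574 genes that had at least 10 counts in 3 or more libraries, with Benjamini-Hochberg adjustment over all of them and a threshold of 0.05. The additive model (polarization plus irradiation) left 2 residual degrees of freedom, and the model with the M1-by-irradiation term left 1, with infinite prior degrees of freedom. In the additive model the irradiated and non-irradiated libraries of a state stand in for replicates, so p-values measure spread around additivity, which may be technical. SE was the log2 change divided by the square root of F, and the 95% interval used the t distribution. Pairs of libraries were called at 2-fold with a prior count of 2, without a test. Counting intervals cover counting error only. Alternatives were a DESeq2 1.42.0 test, its size factors, library totals, other filters, folds and prior counts, and each library left out; removal of a GC trend was chosen after seeing the data. The additive edgeR fit was tested on simulated counts with a spread common to all genes, for the M1 effect and the irradiation effect.

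The members and the lists were chosen with earlier results of these data known. All 28 members are accounted for. Counts in every library are given for members past 2-fold in any pair or past the test in any of the 4 tests, and for Srebf2, Scap, Insig1 and Insig2. From each list, genes called in the M1 or irradiation test are named, or the 4 with the smallest adjusted p where more than 4 were called, apart from some genes that are counted in the lists but not reported here by name; the values of Abca1 and Npc2 in the test of irradiation in M1 were chosen after they were seen. No column of other samples was used (0 found). The 27 rows whose symbols had been turned into dates stayed in the tests.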

Additional observations from a re-analysis of the deposited data

Results flagged for a closer look

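In 3 of the 28 genes the effect of irradiation in M1 cells differed from that in M0 and M2 cells by a test of the difference itself (edgeR's quasi-likelihood test, Benjamini-Hochberg adjusted), beside 8.67% of all tested genes. For Lpin1 the difference was 0.89 on the log2 scale, and this call held under all 5 alternatives that gave an adjusted p. For Insig1 it was -0.71 and for Dhcr7 it was -0.56, each held under 3 of 5, and both were lost with library totals and with no filter on low counts. DESeq2 gave none of the 3 an adjusted p, and its unadjusted p was 0.0254 for Lpin1, 0.0394 for Dhcr7 and 0.103 for Insig1. Each pair of conditions rests on 1 library a side.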

How the results depend on the processing

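Each condition had 1 library, so the replicate number was the same for all 6 and marked no pairs. The irradiation test carried polarization state as a term, which set each irradiated library against the non-irradiated library of its state. In the M1 test 13 members rose, 4 with library totals and 11 with the DESeq2 test, beside 23.3%, 9.43% and 20.4% of all tested genes. With single libraries left out 8 to 15 members rose, beside 15.4% (without M0) to 28.9% (without RM1) of genes. In the main test 2 members fell, beside 24.3% of genes. With single libraries left out 2 to 3 fell, beside 16.7% to 30% of genes. In the M2 test 0 to 3 members fell with single libraries left out and 0 rose. The 3 fell without M1 or without RM1, where 5.43% and 5.42% of all genes fell. In the irradiation test 0 to 1 rose and 0 to 1 fell with single libraries left out, beside 0.349% to 3.68% and 0.323% to 2.38% of all genes. Without both M1 and RM1, 1 fell, beside 2.1% of genes. In the test of irradiation in M1 against the other states, library totals gave 2 higher (Lpin1 and Hsd17b7) and 0 lower. The shares over all tested genes were 12.6% and 2%. No filter on low counts gave 0 lower, beside 1.39% of genes. No library could be left out of that fit and tested, since no residual degrees of freedom remained. DESeq2 gave 21 of the 28 members no adjusted p in it, the 3 called ones included, so no count is compared.

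For M1 against M0, library totals gave 0 members 2-fold higher and 3 lower, a 1.5-fold limit gave 9 and 3, and a 4-fold limit gave 0 higher. For RM1 against RM0, library totals gave 1 lower, and the 1.5-fold limit gave 7 higher and 1 lower. The 1.5-fold limit gave 1 lower for RM2 against RM0. For RM1 against M1, library totals gave 1 higher, and the 1.5-fold limit gave 1 higher and 3 lower. These pair counts stand without the share of all genes at the same settings, so nothing is read from them about the members. No called member changed direction under any alternative. Over all genes the M1 test called 5509, and 3687 to 6780 under the alternatives, the M2 test 22 (3 to 1398), the irradiation test 55 (0 to 695), and the test of irradiation in M1 against the other states 1003 (166 to 1686).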
